A study of Salmo salar with 48 samples.

Results

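The amplicon described here is a stretch of Atlantic salmon (Salmo salar) chromosome 9 that holds 8 CpG dinucleotides. Its CpGs were taken by position, as all CpG rows between 121687029 and 121687311 on the plus strand. The positions are those of the chromosome 9 reference sequence used in the deposited files. This rule uses no methylation value, but the amplicon was chosen with earlier results of these data known. These 8 CpGs are 8 of the 107 CpGs in the 7 amplified regions. All 8 had at least 30 reads in each of 48 livers, which gave 384 values, and none was lost to a filter. The gene and the exon, intron or promoter context of the amplicon were not analysed here, because the gene annotation used here is of a different genome assembly and its coordinates do not apply.

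The livers came from 48 juvenile fish of a commercial brood stock, and each liver was measured once by bisulfite amplicon sequencing. Warm hypoxic fish (WH) were held at 70% air saturation and then warmed by 1 °C per week, starting at 12 °C and ending at 20 °C. Warm normoxic fish (WN) were warmed along the same ramp at 100% air saturation. Control fish (CT) stayed at 12 °C and 100% air saturation throughout. No sampled group was hypoxic at 12 °C. Livers were taken after 4 weeks and after 3 days at the final temperature, with controls sampled alongside, so that the 6 groups hold 8 fish each and no fish was sampled more than once. Each treatment used 2 tanks with 4 fish per tank at each time, and the same 2 tanks served both times. The sexes were uneven over the groups, with 23 males and 25 females in all and between 2 and 5 males per group. Differences between treatments therefore cannot be told apart from differences between their tanks beyond what the 2 tanks of each treatment show.

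In vertebrate genomes most cytosines that are followed by a guanine carry a methyl group, and the unmethylated exceptions cluster in CpG islands, often at promoters. Methylation of a promoter usually goes with a silent gene, whereas methylation inside an active gene body is common. Bisulfite turns unmethylated cytosine into a base that is read as thymine. Methylated and hydroxymethylated cytosine are both still read as cytosine, so the 2 marks cannot be told apart. A level here is the percentage of reads of a CpG that kept the cytosine. A liver holds hepatocytes, bile duct cells, endothelium, blood and immune cells, and a level averages over all of them.

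The 8 CpGs are numbered in the order of their positions, and the 3 bases that the files give for each, beginning with its cytosine, are shown because they are the local context of the sites compared below. CpG 1 lies at 121687029 in CGT, CpG 2 at 121687058 in CGC, CpG 3 at 121687082 in CGT and CpG 4 at 121687112 in CGG. CpG 5 lies at 121687119 in CGC, CpG 6 at 121687145 in CGA, CpG 7 at 121687148 in CGG and CpG 8 at 121687311 in CGG. CpGs 6 and 7 are the closest neighbours, 3 bp apart, and their contexts join into the only run longer than 3 bases that the files give, at chr9:121687145-121687150 on the plus strand, with the 2 CpGs in capitals:
CpGs 6 and 7: CGaCGg
CpGs 4 and 5 are 7 bp apart. The first 7 CpGs fall within 119 bp, and CpG 8 follows after a gap of 163 bp, so the 8 CpGs span 283 bp. CGG occurred at 3 of these 8 CpGs and at 17 of the 107 CpGs of the series, and CGA at 1 of 8 and 30 of 107.

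A CpG was read between 15614 and 163741 times in a fish, with medians over the fish of 87998 at CpG 6, the lowest of the 8, and 89864 at CpG 1, the highest. The amplicon held 20.4% of all calls, all on the plus strand, and the total per fish was between 1939618 and 4891696 calls. The 95% Wilson interval of a single level was at most 0.993 percentage points wide; it covers counting error only, because PCR reads are not independent molecules. The standard deviation (SD) over fish was 10.96 to 19.45 times the counting error at the 8 CpGs, so nearly all of the spread described below lies between fish or between their libraries and not in the read number. Levels did not follow depth by permutation test at any of the 8 CpGs (Pearson's r between -0.25 and 0.20 with log10 reads, Benjamini-Hochberg adjusted p of 0.518 or more over the 94 CpGs with enough reads; none of those 94, 0%, was called).

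A pair of fish held 8 lowest values between them. WN fish 77, a male of tank T2 sampled at 3 days, was the lowest of 48 at CpGs 4, 6, 7 and 8. Its level was 73.5% at CpG 6 (95% Wilson interval 73.3 to 73.8%, 116400 reads), 81.1% at CpG 7 (80.9 to 81.4%) and 79.1% at CpG 8 (78.9 to 79.4%). The next lowest fish of the 48 had 81.5% at CpG 6, 85.9% at CpG 7 and 82.0% at CpG 8, and this was at each of them WN fish 102 of 4 weeks, a female also of tank T2. At the 86 CpGs of other regions fish 77 was the lowest of 48 at 7 and the highest at 2, and 2 control fish were the lowest more often there, at 8 and 10. WH fish 117 of 4 weeks was the lowest at CpGs 1, 2, 3 and 5, with 91.1% at CpG 1, 94.9% at CpG 2, 92.9% at CpG 3 and 91.1% at CpG 5. It was the lowest at 0 of the 86 other CpGs. Fish 77 is included below unless stated, and results that rest on it are given with and without it.

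All 8 CpGs were highly methylated in every fish. CpG 2 averaged 96.5% ± 0.762 and CpG 3 96.2% ± 0.985 (SD, n = 48 here and for the next 6 values). CpG 4 averaged 94.6% ± 0.974, CpG 5 94.4% ± 1.45 and CpG 1 93.7% ± 1.22. CpG 7 averaged 90.5% ± 2.11, CpG 8 87.0% ± 2.43 and CpG 6 85.8% ± 2.58. The 3 sites with the lowest means thus also had the widest spread, and CpG 6 left 14.2% of its reads unmethylated, against 3.46% at CpG 2.

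The order of these levels was largely the same within single fish, although some steps between neighbours in this order were smaller than their SD over fish. CpG 2 exceeded CpG 3 by 0.366 ± 0.913 percentage points and was the higher of the pair in 31 of 48 fish. CpG 4 exceeded CpG 5 by 0.169 ± 1.21 points, in 25 of 48 fish, and CpG 5 exceeded CpG 1 by 0.717 ± 1.39 points, in 32 of 48 fish. These 3 steps are smaller than the SD of the within-fish difference. That SD is the spread of single fish, and whether the mean steps differ from 0 was not tested. The step between CpG 3 and CpG 4 was 1.58 ± 1.15 points and held in 43 of 48 fish. The widest steps were those between CpG 1 and CpG 7, of 3.23 ± 1.96 points, and between CpG 7 and CpG 8, of 3.52 ± 1.77 points, each in the same direction in 47 of 48 fish. CpG 8 exceeded CpG 6 by 1.19 ± 1.79 points, in 39 of 48 fish, a step that is also smaller than its SD.

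Levels changed abruptly along the sequence. CpG 5 and CpG 6 lie 26 bp apart, and CpG 5 was higher in 48 of 48 fish, by 8.65 ± 2.15 points. CpG 6 and CpG 7 lie 3 bp apart, and CpG 6 was lower in 48 of 48 fish, with a difference of -4.70 ± 1.48 points. CpG 6 was the lowest of the 8 sites in 39 fish and CpG 8 in the other 9. CpG 2 was the highest in 27 fish, CpG 3 in 17, CpG 5 in 3 and CpG 4 in 1. CpG 6 also had the fewest calls of the 8 in 48 of 48 fish, 97.97% ± 0.0797 of those at the best covered CpG of the same fish (SD, n = 48), against means of 99.2% or more at the other 7; its part in the level at CpG 6 was not tested.

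**Figure D1:**
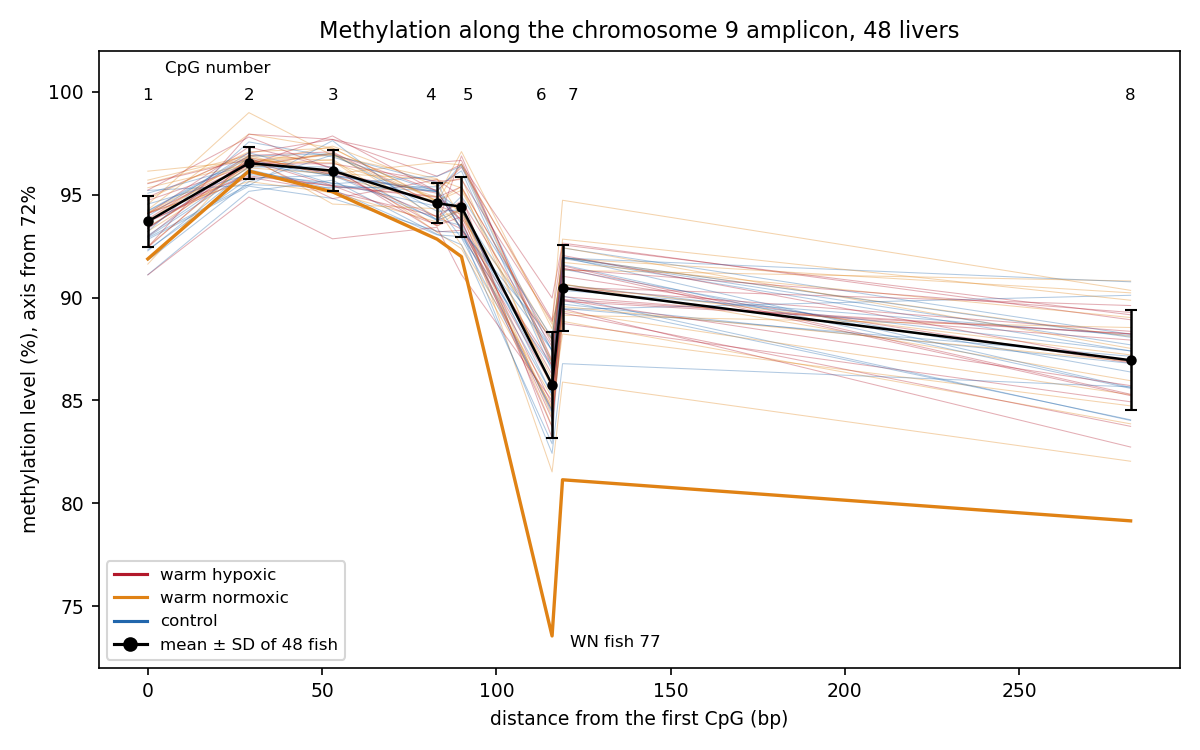
Methylation level in percent (vertical axis, not starting at 0) against the distance in bp from CpG 1 for 48 livers. Thin lines are fish coloured by treatment, the thick line is WN fish 77, and black points with bars are the mean ± SD of 48 fish. The first 5 CpGs average 93.7% or more, CpGs 6 and 8 below 88%, and fish 77 falls to 73.5% at CpG 6.

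The 8 CpGs had higher mean levels than the 86 other CpGs with enough reads. The amplicon was chosen with earlier results of these data known, so this is a description only. The 13 CpGs of the chromosome 15 region had too few reads and were not compared. The lowest mean among its 8 CpGs was 85.8%, while the highest mean among the 86 other CpGs with 30 reads in at least 40 fish was 63.0%. The highest level of any of those CpGs in any fish was 77.6%, and 383 of the 384 amplicon values lay above it. The exception was CpG 6 of fish 77. No test was made, since CpGs of a fish are not replicates.

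Without fish 77, the means over 47 fish were 86.0% at CpG 6, 90.7% at CpG 7 and 87.1% at CpG 8, and their SDs were 1.87, 1.62 and 2.16 points. The order of the 8 means was unchanged.

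The group means of a CpG lay within 0.710 to 2.50 percentage points of each other. CT fish of 3 days had the lowest mean of the 6 groups at CpGs 1, 2, 4 and 5, WN fish of 3 days at CpGs 6, 7 and 8, and WH fish of 4 weeks at CpG 3. The highest mean was that of WN fish of 4 weeks at CpGs 1, 2, 5, 7 and 8 and that of WH fish of 3 days at CpGs 3, 4 and 6. Without fish 77 the group means of a CpG lay within 0.710 to 1.57 points of each other, CpG 6 among them with 0.991 points. The lowest mean at CpG 8 was then that of CT fish of 3 days, and the highest at CpG 1 that of WN fish of 3 days.

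Differences between groups were tested for each CpG with a two-sided exact permutation test of the group means over all 12870 splits of 16 fish, whose smallest possible p is 0.000155. The Benjamini-Hochberg adjustment ran over 94 CpGs in 6 regions, and a CpG was called at an adjusted p under 0.05. The remaining region, on chromosome 15, has 13 CpGs with a median of 18.5 reads per CpG, and none of them was tested. P-values take single fish as the unit, and the fish of both tanks of a treatment enter their spread. They do not treat tanks as the replicates of a treatment. The 8 CpGs varied together over the fish, as given below, so counts out of the 8 are not counts of separate results. No CpG of the amplicon was called in any of the 6 treatment comparisons, the 3 time comparisons or the 3 tank comparisons. None was called in the treatment-by-time test or the sex comparison. None of the 86 other CpGs tested was called either. No CpG of the amplicon had groups that did not overlap in the treatment, time, sex or tank comparisons. Overlap at the CpGs of the other regions is not given here. Limma on M-values also called 0 of the 8 CpGs in every comparison in which it was run, with or without tank as a block.

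After 3 days at the final temperature, CpG 3 had the smallest p of the 8 in both comparisons with controls, which share the same 8 control fish. WH fish had a lowest, median and highest level at CpG 3 of 95.4, 96.8 and 97.9%. WN fish had 95.1, 96.7 and 97.4%, and CT fish had 94.8, 95.8 and 95.96%. The controls of 3 days were thus the most uniform of the 6 groups at CpG 3, with an SD of 0.416 points, and no control exceeded 95.96%. In WH fish 7 of 8 and in WN fish 6 of 8 lay above every control.

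For WH against CT at 3 days, CpG 3 averaged 96.7% ± 0.823 in WH fish and 95.6% ± 0.416 in CT fish (SD, n = 8 each). The difference was 1.12 points (SE 0.326, 95% interval 0.415 to 1.82, exact permutation p = 0.00373, adjusted p = 0.343). It was not called, nor was any of the other 7, and 0% of the 94 CpGs were called in this comparison. By p alone, 2 of the 8 (CpGs 1 and 3) were under 0.05 without adjustment, against 7.45% of the 94. CpG 1 averaged 94.0% ± 0.632 in WH fish and 93.0% ± 1.19 in CT fish. Of the 8 CpGs, 7 had the higher mean in WH fish, against 42.6% of the 94. The differences lay between -0.249 and 1.12 points with a median of 0.790 points, against a median of -0.0572 points over all 94 CpGs. The 8 varied together over the fish, so neither the 7 nor the 2 under 0.05 are separate results. The other 86 of the 94 had mean levels of 63.0% or less, so the 2 medians come from unlike ranges of level. Of the 8 fish of a group, 5 were male in WH and 2 in CT fish. At CpG 3 males averaged 97.0% in WH and 95.0% in CT fish, and females 96.3% and 95.8%. What the uneven sexes add to the difference is not given here. CpG 3 was called under 2 alternatives, and permutation within sex was not among them. WH fish 93, at 95.4% the lowest of its group, was the only WH fish of 3 days below the control mean. Without it the difference was 1.31 points and the adjusted exact permutation p was 0.0146. The 7 WH fish that were left all lay above every control, so no split could be more extreme. With all 16 fish weighted by their reads the difference was 1.12 points with the same adjusted p of 0.0146. That value is the smallest that a single CpG can reach after adjustment over the 94, so its equality under the 2 alternatives carries no information. Over all alternatives tried the adjusted p at CpG 3 was between 0.0146 and 0.967, the highest by limma on M-values.

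For WN against CT at 3 days, CpG 3 averaged 96.5% ± 0.757 in WN fish and 95.6% ± 0.416 in CT fish (SD, n = 8 each). The difference was 0.879 points (SE 0.306, 95% interval 0.216 to 1.53, exact permutation p = 0.0143, adjusted p = 0.368), with 7 of 8 WN fish above the control mean. Here too 0 of the 8 and 0% of the 94 CpGs were called, while 2 of the 8 (CpGs 2 and 3) and 7.45% of the 94 were under 0.05 without adjustment. CpG 2 averaged 96.7% ± 0.322 in WN fish and 96.1% ± 0.630 in CT fish, and 8 of 8 WN fish lay above the control mean. Differences ran between -2.08 and 0.952 points, with the higher mean in WN fish at CpGs 1 to 5 and in CT fish at CpGs 6 to 8. Over the 8 the median was 0.225 points, against 0.0790 points over all 94, of which 60.6% had the higher mean in WN fish. Males numbered 4 of 8 in WN and 2 of 8 in CT fish. At CpG 3 males averaged 96.5% in WN and 95.0% in CT fish, and females 96.5% and 95.8%.

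The lower WN means at the last 3 CpGs depended on fish 77 to different degrees. CpG 6 averaged 84.1% ± 4.48 in WN fish and 86.0% ± 1.73 in CT fish of 3 days, a difference of -1.85 points that became -0.342 points without fish 77. CpG 7 averaged 88.8% ± 3.36 in WN fish and 90.9% ± 1.04 in CT fish, a difference of -2.08 points that became -0.978 points without it. CpG 8 averaged 85.8% ± 3.53 in WN fish and 86.3% ± 1.66 in CT fish, and its difference of -0.524 points turned to 0.427 points. At CpG 3 fish 77, at 95.1%, was the lowest WN fish of 3 days and the only 1 of them below the control mean. Leaving it out therefore had to raise the difference there. It became 1.07 points, with an exact permutation p of 0.000777 and an adjusted p of 0.0730. This adjusted p was the lowest over all alternatives tried, which reached 0.895 without control tank T3.

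**Figure D2:**
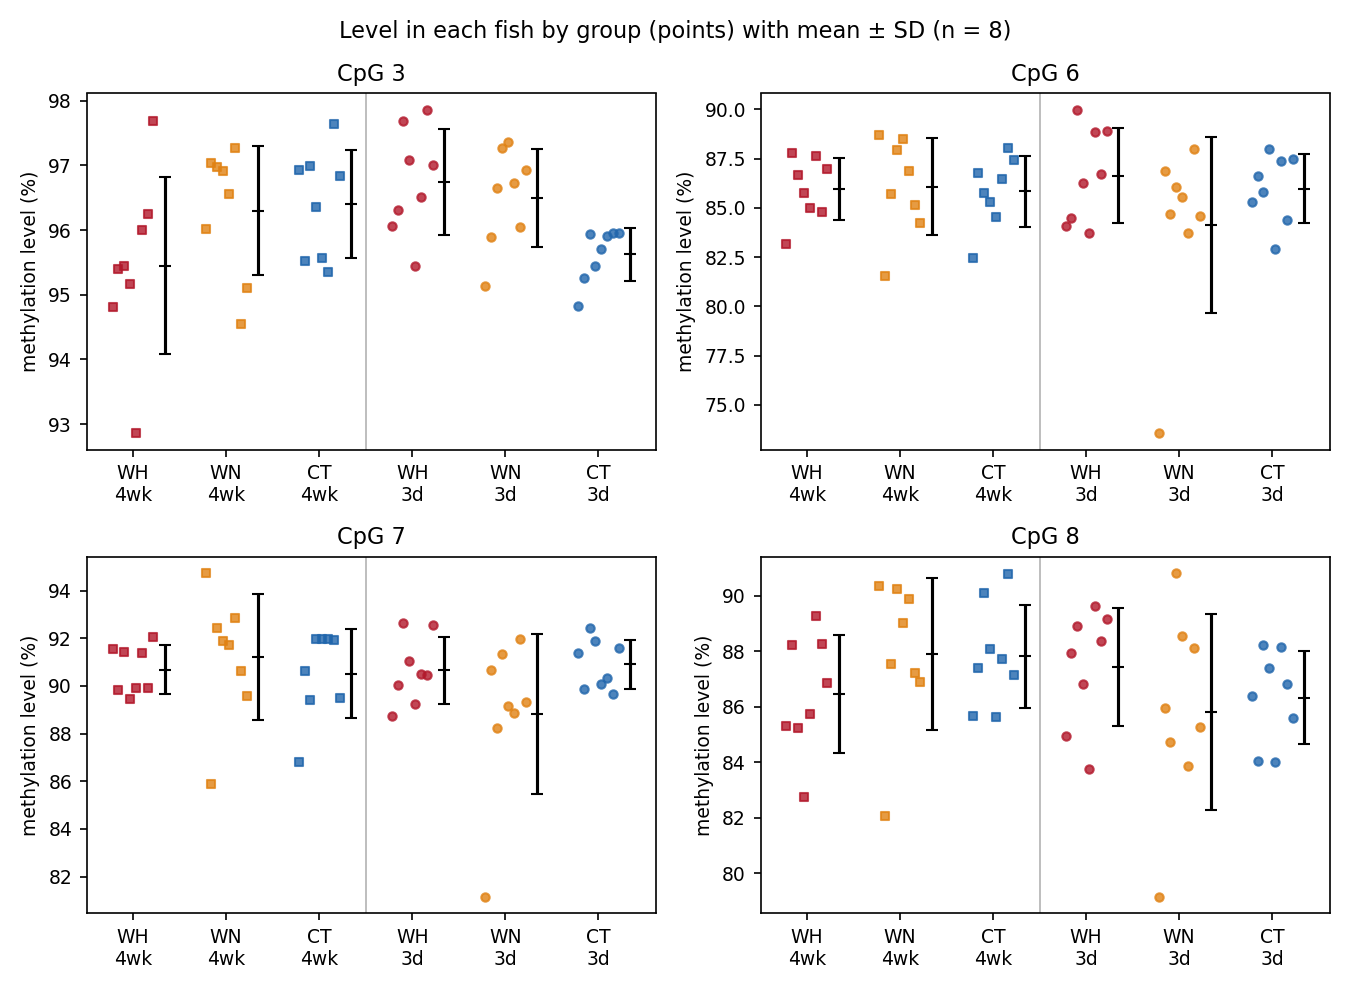
Methylation level in percent at CpGs 3, 6, 7 and 8 in each fish (points, with axes that do not start at 0) for the 6 groups, with the mean ± SD of 8 fish beside them. At CpG 3 the CT fish of 3 days lie between 94.8 and 95.96%, and at CpGs 6 and 7 WN fish 77 lies alone at 73.5 and 81.1%.

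Oxygen level under warming was compared by setting WH against WN fish at 3 days. CpG 7 had the smallest p, with 90.7% ± 1.40 in WH fish and 88.8% ± 3.36 in WN fish, a difference of 1.83 points (SE 1.29, 95% interval -0.557 to 4.59, exact permutation p = 0.163, adjusted p = 0.780). Without fish 77 it was 0.729 points. Of the 8 CpGs 0 were called and 0 had an unadjusted p under 0.05, against 0% called and 5.32% under 0.05 of the 94. The mean was higher in WH fish at 8 of 8 CpGs, by between 0.00455 and 2.50 points with a median of 0.565. Of all 94 CpGs 41.5% had the higher mean in WH fish, and their median difference was -0.0482 points. The 8 CpGs varied together over the fish, as given below, so 8 of 8 are not 8 separate results. Without fish 77 the mean was higher in WH fish at 6 of 8, with CpGs 1 and 2 turned. The highest difference, at CpG 6, was then 0.991 points.

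The same comparisons were made after 4 weeks. For WH against CT fish, CpG 3 had the smallest p, with a lowest, median and highest level of 92.9, 95.4 and 97.7% in WH fish and 95.3, 96.6 and 97.6% in CT fish. The means were 95.5% ± 1.37 in WH fish and 96.4% ± 0.837 in CT fish, a difference of -0.949 points (SE 0.568, 95% interval -2.16 to 0.245, exact permutation p = 0.112, adjusted p = 0.866). In WH fish 7 of 8 lay below the control mean, but the groups overlapped widely. Without WH fish 117 the difference was -0.578 points. Of the 8 CpGs 0 were called and 0 were under an unadjusted p of 0.05, against 0% and 2.13% of the 94. The mean was higher in WH fish at 4 of the 8 and at 42.6% of the 94.

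For WN against CT fish at 4 weeks, CpG 2 had the smallest p, with 96.9% ± 1.06 in WN fish and 96.3% ± 0.762 in CT fish. The difference was 0.654 points (SE 0.461, 95% interval -0.321 to 1.65, exact permutation p = 0.183, adjusted p = 0.982). Without WN fish 104, whose level of 99.0% was the highest value of the whole amplicon, it was 0.358 points. Of the 8 CpGs 0 were called and 0 were under an unadjusted p of 0.05, against 0% and 4.26% of the 94, and the differences ran between -0.0991 and 0.697 points.

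For WH against WN fish at 4 weeks, the mean was lower in WH fish at 8 of 8 CpGs, with differences between -1.45 and -0.114 points. CpG 3 had the smallest p, with 95.5% ± 1.37 in WH fish and 96.3% ± 0.998 in WN fish, a difference of -0.850 points (SE 0.600, 95% interval -2.14 to 0.420, exact permutation p = 0.179, adjusted p = 0.906). Without WH fish 117 it was -0.479 points. Of the 8 CpGs 0 were called and 0 were under an unadjusted p of 0.05, against 0% and 3.19% of the 94. The median difference was -0.483 points over the 8 and -0.120 points over all 94, of which 35.1% had the higher mean in WH fish. As at 3 days, 8 of 8 are not 8 separate results.

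**Figure D3:**
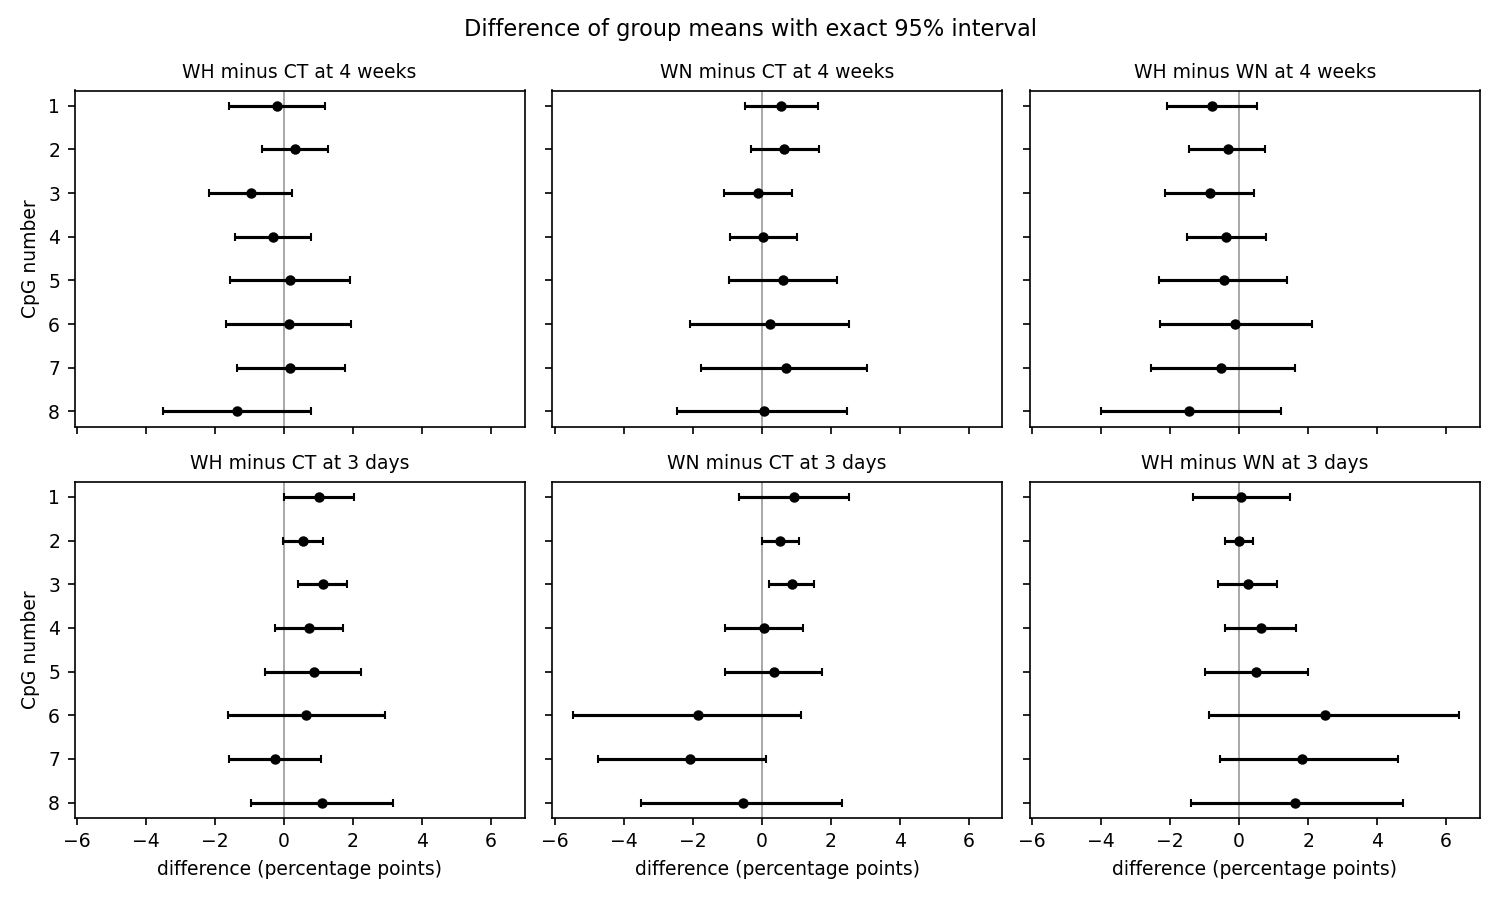
Difference between group means in percentage points (horizontal axis) with its exact 95% interval for each of the 8 CpGs, in 6 comparisons of treatments (n = 8 fish a group). Intervals exclude 0 at CpGs 1 and 3 for WH minus CT at 3 days and at CpGs 2 and 3 for WN minus CT at 3 days, and include it elsewhere; none of these 4 passed adjustment over the 94 CpGs.

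The same CpG carried the smallest p over time in WH fish and in controls, in opposite directions. In WH fish CpG 3 averaged 95.5% ± 1.37 at 4 weeks and 96.7% ± 0.823 at 3 days, a difference of -1.29 points (SE 0.566, 95% interval -2.50 to -0.108, exact permutation p = 0.0325, adjusted p = 0.557). In CT fish it averaged 96.4% ± 0.837 at 4 weeks and 95.6% ± 0.416 at 3 days, a difference of 0.778 points (SE 0.331, 95% interval 0.0641 to 1.50, exact permutation p = 0.0342, adjusted p = 0.924). In WN fish it averaged 96.3% ± 0.998 at 4 weeks and 96.5% ± 0.757 at 3 days, a difference of -0.200 points. The controls, which stayed at 12 °C at both times, thus also had a difference of means between the times, 0.778 points. At 3 days the differences from CT fish at this CpG were 0.879 points in WN fish and 1.12 points in WH fish. Whether the difference over time in CT fish has a part in them was not tested. In WH fish 1 of the 8 CpGs and in CT fish 1 of the 8 was under an unadjusted p of 0.05, against 7.45% and 3.19% of the 94, and 0 of 8 and 0% of 94 were called in each. The sexes also shifted in opposite directions, with 5 males at 3 days and 2 at 4 weeks in WH fish, and 2 and 5 in CT fish. At CpG 3 WH males averaged 97.0% at 3 days and 96.2% at 4 weeks, and WH females 96.3% and 95.2%. CT males averaged 95.0% and 96.2%, and CT females 95.8% and 96.7%. With permutation within sex, run as an alternative, no CpG of the amplicon was called in any time comparison. What the shift of the sexes adds to the size of these time differences is not given here.

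Whether the time difference depended on the treatment was tested with an interaction F, whose p came from permuted residuals of a model without the interaction. The model held treatment and time but not sex. CpG 3 had the smallest p of the 8, with F = 5.15, a permutation p of 0.00901 and an adjusted p of 0.543. It was the only 1 of the 8 under an unadjusted p of 0.05, against 3.19% of the 94, and 0 of the 8 and 0% of the 94 were called. Without fish 77, F was 5.38 and the adjusted permutation p was 0.355, the lowest over the alternatives tried, which reached 0.850 by limma with tank as a block. At the other 7 CpGs the permutation p was between 0.134 and 0.811.

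In WN fish CpG 7 had the smallest p over time, with 91.2% ± 2.63 at 4 weeks and 88.8% ± 3.36 at 3 days, a difference of 2.38 points (SE 1.51, 95% interval -0.688 to 5.64, exact permutation p = 0.136, adjusted p = 0.972). Without fish 77 it was 1.28 points. None of the 8 was called or under an unadjusted p of 0.05, against 0% and 3.19% of the 94. With permutation within tanks, so that fish of the same tank were compared over time, no CpG was called either, and CpG 3 had an adjusted exact p of 0.614 in WH fish and 0.930 in CT fish.

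Males and females were compared after the mean of its group was subtracted from each level, with a permutation within the 6 groups. The difference is that between all males and all females after this centring. The sexes were uneven over the groups, so it is not the mean of the 6 group differences. CpG 6 had the smallest p. It averaged 85.3% ± 3.16 in 23 males and 86.2% ± 1.87 in 25 females before any adjustment for group (SD). The difference after centring was -0.953 points (permutation p = 0.205, adjusted p = 0.993), and without fish 77, a male, it was -0.459 points. Differences at the 8 CpGs ran between -0.953 and 0.117 points. Of the 8, 0 were called and 0 were under an unadjusted p of 0.05, against 0% and 4.26% of the 94. At CpG 6 males averaged less than females in every group but WN fish of 4 weeks, where males averaged 87.2% and females 84.1%. In CT fish of 4 weeks males averaged 84.9% and females 87.4%, with 5 males and 3 females in each of these 2 groups. In CT fish of 3 days the means were nearly equal, at 85.96% in males and 85.98% in females.

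The 2 tanks of each treatment were compared with fish permuted within each time, over 4900 splits with a smallest possible p of 0.000408. Sex was not taken into account. At 3 days all WH fish of tank T1 were male and all CT fish of tank T4 female, while tanks T6 and T3 held both sexes. Tank and sex are thus partly mixed in these differences. In WH fish CpG 8 had the smallest p, with 87.6% ± 2.05 in tank T6 and 86.3% ± 2.08 in tank T1 (SD, n = 8 each). The difference was 1.36 points (95% interval -0.884 to 3.54, exact permutation p = 0.211, adjusted p = 0.992). In WN fish it was CpG 5, with 94.9% ± 1.55 in tank T5 and 94.2% ± 1.50 in tank T2, a difference of 0.693 points (exact permutation p = 0.363, adjusted p = 0.993). In CT fish it was CpG 2, with 96.1% ± 0.788 in tank T4 and 96.3% ± 0.582 in tank T3, a difference of -0.237 points (exact permutation p = 0.514, adjusted p = 0.993). In each treatment 0 of these 8 sites were called and 0 were under an unadjusted p of 0.05. Of the 94, 0% were called in each, and 1.06% in WH, 5.32% in WN and 2.13% in CT fish were under 0.05.

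Tank T2 of the WN fish held both fish with the lowest levels at CpGs 6 to 8, and its spread was correspondingly wide. CpG 6 averaged 85.8% ± 1.76 in tank T5 and 84.4% ± 4.89 in tank T2 (SD, n = 8 each). At CpG 7 the means were 90.5% ± 1.51 in tank T5 and 89.5% ± 4.32 in tank T2. Without fish 77, tank T2 averaged 85.9% ± 2.37 at CpG 6 and 90.7% ± 2.89 at CpG 7 (SD, n = 7), both above the means of tank T5. Tank T2 also held the fish with the highest level at CpG 7, 94.7%, so its fish lay at both ends of the range.

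The 8 CpGs varied together over the fish. Pearson's r was positive for 28 of 28 pairs, with a median of 0.40 and a range of 0.12 to 0.82, where the median over all 4371 pairs of the 94 CpGs was 0.01. Of the 28 pairs 12 were called by permutation test with adjustment over the 4371 pairs, 42.9%, against 4.07% of all pairs, 21.7% of the 722 pairs within other regions and 0.436% of the 688 pairs of an amplicon CpG with a CpG elsewhere. Within other regions r reached 0.95, above the highest value here. The tested regions also differ in depth, with median reads per CpG of 435 on chromosome 3, 10429 on chromosome 16 and 89316 here. What depth and level add to these shares was not tested. Without fish 77 there were 9 calls among the 28 by Pearson's r (background 3.84%) and 7 by Spearman's rho (background 3.61%). By Spearman's rho over all fish 10 of 28 were called (background 3.89%), and with levels centred on the 6 group means 10 of 28 by Pearson's r (background 3.98%). The CpGs of a fish share its DNA, its bisulfite conversion and its PCR product, and what these add to the correlation was not tested.

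By Pearson's r over all fish, the 3 highest values joined the last 3 CpGs. CpGs 6 and 7, which are 3 bp apart, had r = 0.82 and rho = 0.62, and r was 0.61 without the 2 fish farthest from the median and 0.67 without fish 77. CpGs 6 and 8, at 166 bp, had r = 0.75 and rho = 0.68, with r = 0.61 without the 2 farthest fish and 0.66 without fish 77. CpGs 7 and 8, at 163 bp, had r = 0.70 and rho = 0.54, with r = 0.52 without the 2 farthest fish and 0.59 without fish 77. Each of these 3 had a permutation p of 1e-05 for r, the smallest that 100000 resamples can give, and an adjusted p of 0.000364. For rho the permutation p was 1e-05 for the first 2 pairs and 7e-05 for CpGs 7 and 8, and the adjusted p was 0.000387 for the first 2 pairs and 0.00237 for CpGs 7 and 8. The order of these pairs depended on the measure. CpGs 6 and 7 had the higher r with all fish, while CpGs 6 and 8 had the higher rho, and without the 2 farthest fish both had r = 0.61. CpGs 5 and 6, described next, exceeded CpGs 7 and 8 by rho and by r without the 2 farthest fish.

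By Pearson's r over all fish the other pairs were less closely tied. The median r was 0.36 for pairs within the first 5 CpGs and 0.40 for pairs of these with the last 3. CpGs 7 and 8 had rho = 0.54 and, without the 2 farthest fish, r = 0.52, close to the values of CpGs 4 and 5. CpGs 4 and 5, at 7 bp, had r = 0.57 (permutation p = 4e-05, adjusted p = 0.0013) and rho = 0.53 (permutation p = 1e-04, adjusted p = 0.00331), with r = 0.51 without the 2 farthest fish. CpGs 5 and 6, which differ by 8.65 points in level at 26 bp, had r = 0.55 (permutation p = 3e-05, adjusted p = 0.00102) and rho = 0.56 (permutation p = 7e-05, adjusted p = 0.00237), with r = 0.56 without the 2 farthest fish. CpGs 3 and 7 had the lowest r, 0.12 (permutation p = 0.416, adjusted p = 0.893), with rho = 0.13 (permutation p = 0.362, adjusted p = 0.917). CpG 3, the site with the smallest p in 4 of the 6 treatment comparisons, was called with only 1 other CpG by Pearson's r, CpG 2 (r = 0.48, permutation p = 0.00064, adjusted p = 0.0174), where rho was 0.44 (permutation p = 0.00232, adjusted p = 0.0583). By rho it was called with CpG 8 instead (rho = 0.45, permutation p = 0.0017, adjusted p = 0.0442).

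**Figure D4:**
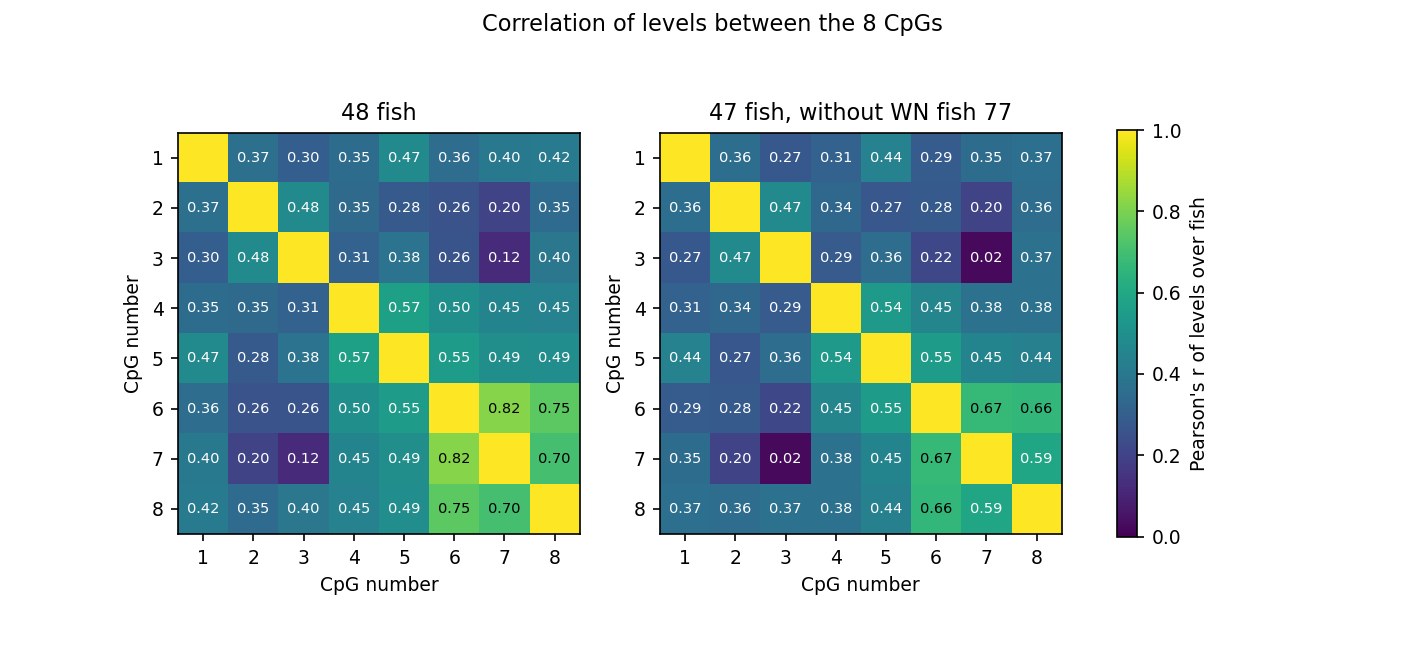
Pearson's r between the levels of each pair of the 8 CpGs over 48 fish (left) and over 47 fish without WN fish 77 (right), as colour and number. CpGs 6, 7 and 8 form the block of highest values, 0.70 to 0.82 with all fish and 0.59 to 0.67 without fish 77, and every value is above 0.

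**Figure D5:**
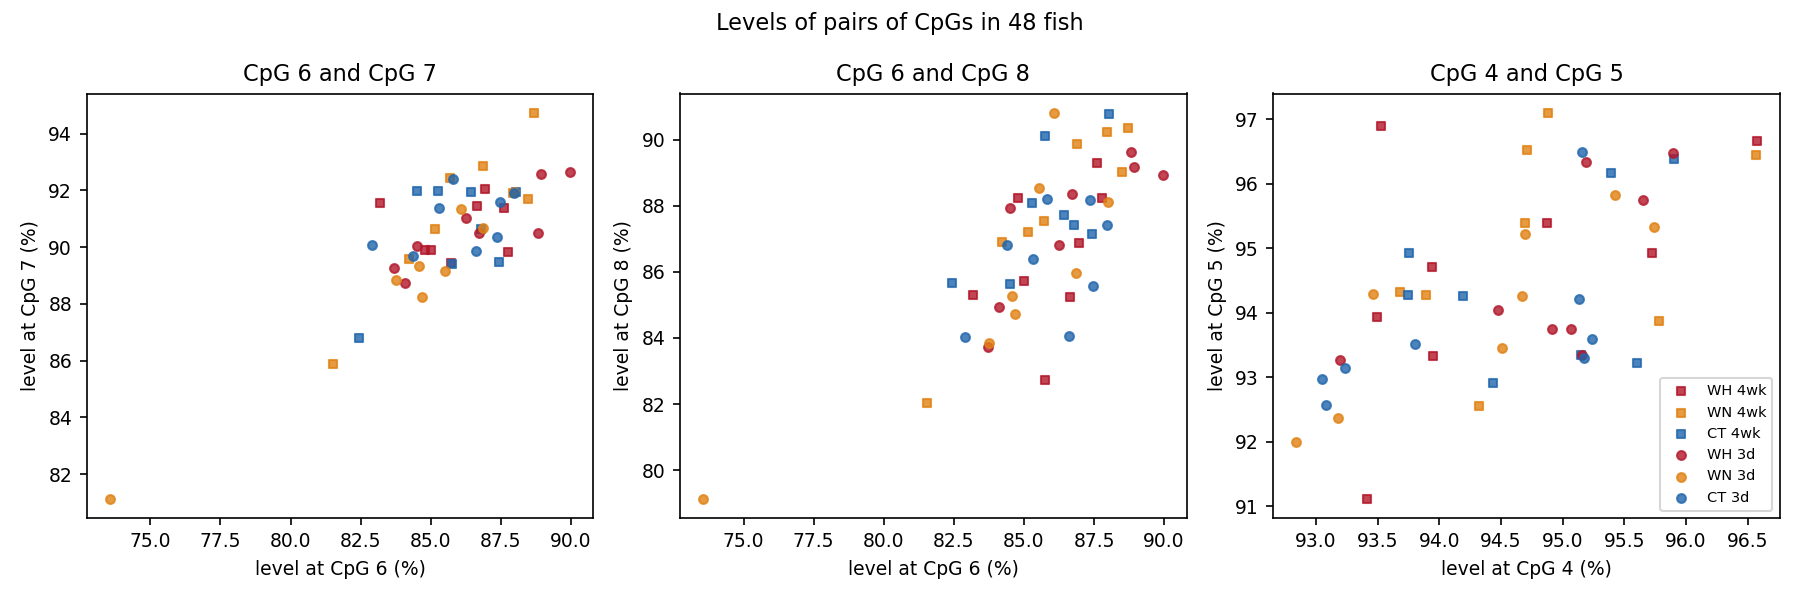
Methylation level in percent of CpG 7 against CpG 6, of CpG 8 against CpG 6 and of CpG 5 against CpG 4 in 48 fish, with colours for treatments, squares for 4 weeks and circles for 3 days. WN fish 77 lies alone at the lower left of the first 2 panels, at 73.5% on the CpG 6 axis, and the groups overlap in all 3 panels.

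The split between the first 5 and the last 3 CpGs was chosen after these values were seen and is given as a description only. The first 5 CpGs averaged 95.1% ± 0.779 and the last 3 averaged 87.7% ± 2.17 (SD, n = 48). The fall between the 2 stretches was 7.35 ± 1.81 points, with a lowest value of 4.50 and a highest of 15.65 points, the highest in WN fish 77. Without fish 77 the last 3 CpGs averaged 87.9% ± 1.64, and the fall was 7.18 ± 1.35 points with a highest value of 11.80 points (SD, n = 47). With all fish the mean fall of a group was between 6.80 and 8.85 points. It was largest in WN fish of 3 days, fish 77 with 15.65 points among them, and smallest in CT fish of 3 days. The mean of WN fish of 3 days without fish 77 is not given here. Their median fall, with fish 77, was 8.31 points, and the medians of the other groups lay between 6.51 and 7.53 points.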

How the data were processed

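Liver DNA was bisulfite converted, amplified and sequenced on an Illumina MiSeq, per the labels' protocols. Bismark 0.20.0, Bowtie2 (no version), Trim Galore 0.4.4 and MultiQC 1.9 are listed in the submitters' processing notes. How they were set, how duplicate reads were handled, the conversion rate and the build's name are not given in the sources used here, and incomplete conversion would raise all levels. The deposited files hold counts of methylated and unmethylated calls per CpG cytosine, whole numbers without normalization, per the file headers.

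A level is 100 times methylated over all calls, used at 30 or more reads. Groups, sex and tank came from titles and characteristics. The closest 2 fish of a group differed by a chi-square of 19.0 per CpG, and no fish was counted as a duplicate. The chi-square takes PCR reads as independent and was run only within groups, so it cannot exclude duplicates. Comparisons used exact permutation of fish (tested on simulated data), 100000 resamples where exact enumeration was not possible, and Benjamini-Hochberg adjustment over the 94 CpGs that reached 30 reads in 6 or more fish per group. The 95% intervals hold the shifts that the exact test did not reject. All 8 CpGs are described. Each comparison gives full statistics for the CpGs called, or for the 1 with the smallest p where none was. The rule for the CpGs uses positions only, but the amplicon, tests and lists were chosen with earlier results of these data known. Alternatives were coverage minimums of 10, 100 and 1000 reads, weighting fish by reads, permutation within sex or tank, limma on M-values, log2((methylated + 1) / (unmethylated + 1)), and leaving out fish or tanks. Fish numbers pair no fish across groups, and treatments share no tank. Tools were Python 3.11.15, numpy 2.4.6, scipy 1.17.1, R 4.3.3 and limma 3.58.1.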

Additional observations from a re-analysis of the deposited data

Results flagged for a closer look

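In 48 sets of 8 fish, each a group at a CpG, 5 values lay farther from the rest of their set than Dixon's 95% critical value allows, and chance flags about 1 in 20 such sets. They came from 4 fish. WN fish 77 of 3 days stood below its group with 73.5% at CpG 6, where the next fish had 83.7%, and with 81.1% at CpG 7, where the next had 88.2%. WN fish 102 of 4 weeks stood below its group with 82.0% at CpG 8, where the next had 86.9%. WN fish 103 of 4 weeks stood above its group with 96.1% at CpG 1, where the next had 94.5%. CT fish 86 of 3 days stood above its group with 96.5% at CpG 5, where the next had 94.2%.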

How the results depend on the processing

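The number of amplicon CpGs called was 0 in all comparisons under all alternatives run, except for WH against CT at 3 days. For WH against CT at 3 days it was 1 with fish weighted by reads, and between 0 and 1 when each fish was left out in turn, with 1 only without WH fish 93. In both cases the CpG called was CpG 3; the cause was not tested. Over the fish left out, its adjusted exact permutation p was between 0.0146, the smallest that a single CpG can reach, and 0.504. With tank as a replicate block, the time comparisons also gave 0 calls, with an adjusted exact permutation p of 0.930 at CpG 3 in CT, 0.976 at CpG 7 in WN and 0.614 at CpG 3 in WH fish. Limma with tank as a random block gave 0 calls too, at a consensus correlation of -0.06 between fish of a tank. The number of correlated pairs was 12 with all fish and between 7 and 9 without fish 77, an alternative chosen after seeing the data: 9 by Pearson's r and 7 by Spearman's rho. Among the differences given with full statistics none changed direction. Others did without fish 77, among them CpG 8 for WN against CT and CpGs 1 and 2 for WH against WN at 3 days, and CpG 1 over time in WN fish, at -0.0246 points against 0.269 with all fish. Coverage minimums of 10, 100 and 1000 reads changed no level of the 8 CpGs, all read at least 15614 times. Leaving out a tank left 4 against 4 fish in the time comparisons, where the exact p cannot go below 0.0286, and 4 against 8 in the treatment comparisons, where it cannot go below 0.00202 and a single CpG cannot go below 0.190 after adjustment. Counts of 0 without a tank therefore say nothing on stability. Counting error is small here, with 95% Wilson intervals at most 0.993 points wide. The comparisons are limited by 8 fish a group, 2 tanks a treatment and uneven sexes, and the levels by the conversion rate, which is not given in the sources used.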

Other observations

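Outside the amplicon, 10 fish had calls elsewhere on chromosome 9, of which 4 were controls. The highest number was 786 calls in a warm fish, WH fish 120 of 4 weeks, and 1503 calls in a control, CT fish 84 of 3 days.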
